A study of Mus musculus with 2 samples.

Results

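The genes described here were 54 interleukins, tumour necrosis factor (TNF) superfamily ligands, colony-stimulating factors and cytokine receptors, measured by RNA sequencing in mouse macrophages left nontreated (NT) or stimulated with interleukin-4 (IL-4). They were chosen as a fixed list of gene symbols, matched by NCBI gene number, from 15623 genes listed in 1 or both libraries, and although the rule used no measured value, the list was drawn up with earlier results of these data known. The list held 20 ligands or secreted antagonists and 34 receptors or receptor-related proteins. Of the 54 genes, 52 were listed with reads, and Il27 and Csf2 were listed in neither library.

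The NT and IL-4 groups held 1 library each, both from wild-type C57BL/6 mice that were 6 to 8 weeks old per the methods of the study. Cells were collected from the peritoneal cavity 4 to 5 days after injection of 4% thioglycollate, an irritant that recruits macrophages, and were kept by adherence for 4 h and starved in 0.5% serum. The IL-4 group then received 20 ng per mL of IL-4 for 6 h. Adherence selects cells by attachment rather than by a sorted marker, and 1 label field named bone marrow as the tissue while the source field named peritoneal macrophages. Neither group had replicates, so the spread between animals is unknown and no p-value is given.

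Cytokines act through receptors built from chains, of which one often binds the ligand and another is shared among several cytokines. Il6st encodes gp130, the signalling chain shared by the receptors for IL-6, IL-11, LIF, oncostatin M and IL-27, whereas Csf2rb encodes the shared chain for GM-CSF, IL-3 and IL-5. In macrophages, Csf1r is the receptor for the growth and survival factor M-CSF (Csf1), and the IL-10 and TNF receptors carry anti-inflammatory and inflammatory signals. IL-4 itself signals through Il4ra and the transcription factor Stat6, and STAT proteins bind palindromic DNA sites in which TTC and GAA are separated by a few bases.

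The NT library held 11035641 expected counts (the estimated reads of each gene) and the IL-4 library 11250099. A floor of 3 counts corresponded to 0.272 CPM (counts scaled to a common total) for NT and 0.267 CPM for IL-4 cells. All 8 macrophage markers were listed in both libraries, with a summed level of 14906 FPKM (a level scaled for transcript length and depth) in NT and 14769 FPKM in IL-4 cells, although Csf1r was 1 of them. Lyz2 and Cd68 dominated this sum, and single markers moved, with Cd14 falling from 1219 to 591 counts (log2 ratio -1.07) and Csf1r rising (0.90). The marker lists of neutrophils, mast cells, eosinophils, T cells, B cells and dendritic cells each summed to between 1.06 and 8.76 FPKM. Mesothelial cell and fibroblast markers summed to 28.3 and 24.3 FPKM, and the adipocyte markers, of which only Adipoq was listed, to 0 and 10.1 FPKM. The part of these other cells in the results below was not tested. In bulk RNA, fewer cells of a type and less RNA per cell cannot be told apart.

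A gene was called higher or lower when its log2 ratio of CPM (IL-4 over NT, with 0.5 count added) was at least 0.75 in size and its exact Clopper-Pearson 95% interval left out 0. These intervals and the floor cover counting error only, and amplified reads that carry no molecular identifier are not independent molecules. The calls therefore compare 2 libraries rather than 2 conditions. The median log2 ratio of all genes was -0.03.

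Promoter sequences are shown for Il6st and Il31ra, which lie next to each other and were both called higher, for Tnfsf13b, a ligand called higher, and for Il1rn, an antagonist called lower. These include every called gene with a match to the site described below, so they are not typical of the called genes. The called genes Csf1, Csf3r, Il1rl2, Tnf and Osmr had a promoter without a match and are not shown. Each is the 250 bases before an annotated start from RefSeq (GRCm38.p6), written 5′ to 3′ on the strand of the gene, and capitals mark a match to TTC and GAA with 3 or 4 bases between them. The Il31ra window is chr13:112580663-112580912 (minus strand), with a 3-base gap and the match 191 bases before the start. The Il6st window is chr13:112463820-112464069 (plus strand) and holds no match. The Tnfsf13b window is chr8:10006217-10006466 (plus strand), with a 4-base gap and the match 44 bases before the start. The Il1rn window is chr2:24345041-24345290 (plus strand), also with a 4-base gap, 121 bases before the start. Il1rn has 3 annotated starts in the table, and the window of the start farthest upstream (chr2:24336610-24336859) holds no match. Tnfsf13b has another start, whose window holds the same match.
Il31ra: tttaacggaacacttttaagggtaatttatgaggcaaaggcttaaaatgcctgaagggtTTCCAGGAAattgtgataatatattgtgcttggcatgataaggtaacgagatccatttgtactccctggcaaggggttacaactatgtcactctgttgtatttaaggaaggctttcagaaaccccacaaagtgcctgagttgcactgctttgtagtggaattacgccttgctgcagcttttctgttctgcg
Il6st: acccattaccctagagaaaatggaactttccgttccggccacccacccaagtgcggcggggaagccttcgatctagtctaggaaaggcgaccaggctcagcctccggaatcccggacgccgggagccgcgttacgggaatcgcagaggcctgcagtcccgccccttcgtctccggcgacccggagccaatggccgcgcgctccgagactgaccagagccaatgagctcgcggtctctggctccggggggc
Tnfsf13b: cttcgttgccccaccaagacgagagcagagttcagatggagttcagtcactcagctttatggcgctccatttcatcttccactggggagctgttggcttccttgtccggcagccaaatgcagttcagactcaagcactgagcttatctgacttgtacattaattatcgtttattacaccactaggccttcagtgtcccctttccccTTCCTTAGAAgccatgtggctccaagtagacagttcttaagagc
Il1rn: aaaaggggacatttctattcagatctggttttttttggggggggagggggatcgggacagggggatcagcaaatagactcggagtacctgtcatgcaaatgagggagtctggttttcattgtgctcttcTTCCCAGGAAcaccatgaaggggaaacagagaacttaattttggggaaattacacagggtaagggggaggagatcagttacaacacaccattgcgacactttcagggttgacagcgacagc
In the windows of 300 bases (250 before and 50 after each start), TTCNNNGAA was found in 8.3% of 32851 mouse promoters and the form with 4 unspecified bases in 6.95%, reading both strands. Either form was found in 14.6%, and a promoter with both forms, which may overlap, counted once. Among 53 promoters of the list, 17 held either form, and these belonged to 13 of the 40 genes that had a promoter in the table. Across all genes with a promoter the share was 16.6%, against 32.5% for the list. Of the called genes with a promoter, 2 of 6 higher and 1 of 3 lower held a match. A match says only that these letters lie in the window.

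Of the 52 genes with reads, 9 were called higher (17.3%) and 5 lower (9.62%). Across all 15593 genes with reads, 4.07% were called higher and 6.28% lower. Since the list was chosen with results known, these shares describe it and are not a test of it. The ratios were balanced, with 26 above 0 and 26 below, and their median was 0.03. Receptors accounted for 7 of the 9 higher genes, with 2 receptors lower, and the median log2 ratio of the 34 receptors was 0.11. Among the 18 ligands with reads, 2 were called higher and 3 lower, with a median of -0.25. Summed over the list, ligand transcripts went from 6534.5 to 5806 counts and receptor transcripts from 64291 to 77134 counts. These sums follow the most abundant genes and do not describe the lists as a whole. Tnfsf12, which was not called, had 4578 and 3946 of the ligand counts, and Csf1r 6236 and 11896 of the receptor counts.

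Few reads limited part of the list. In both libraries 7 genes were at or under the floor of 3 counts, namely Il6, Il10, Il33, Csf3, Tnfsf14, Il1r2 and Il12rb1. Il12b, Lif and Il18r1 also had under 20 counts in each library. The 42 genes with at least 20 counts in the library with more included all 9 higher and all 5 lower calls. Among all genes passing this filter, 4.76% were called higher and 7.61% lower.

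**Figure D1:**
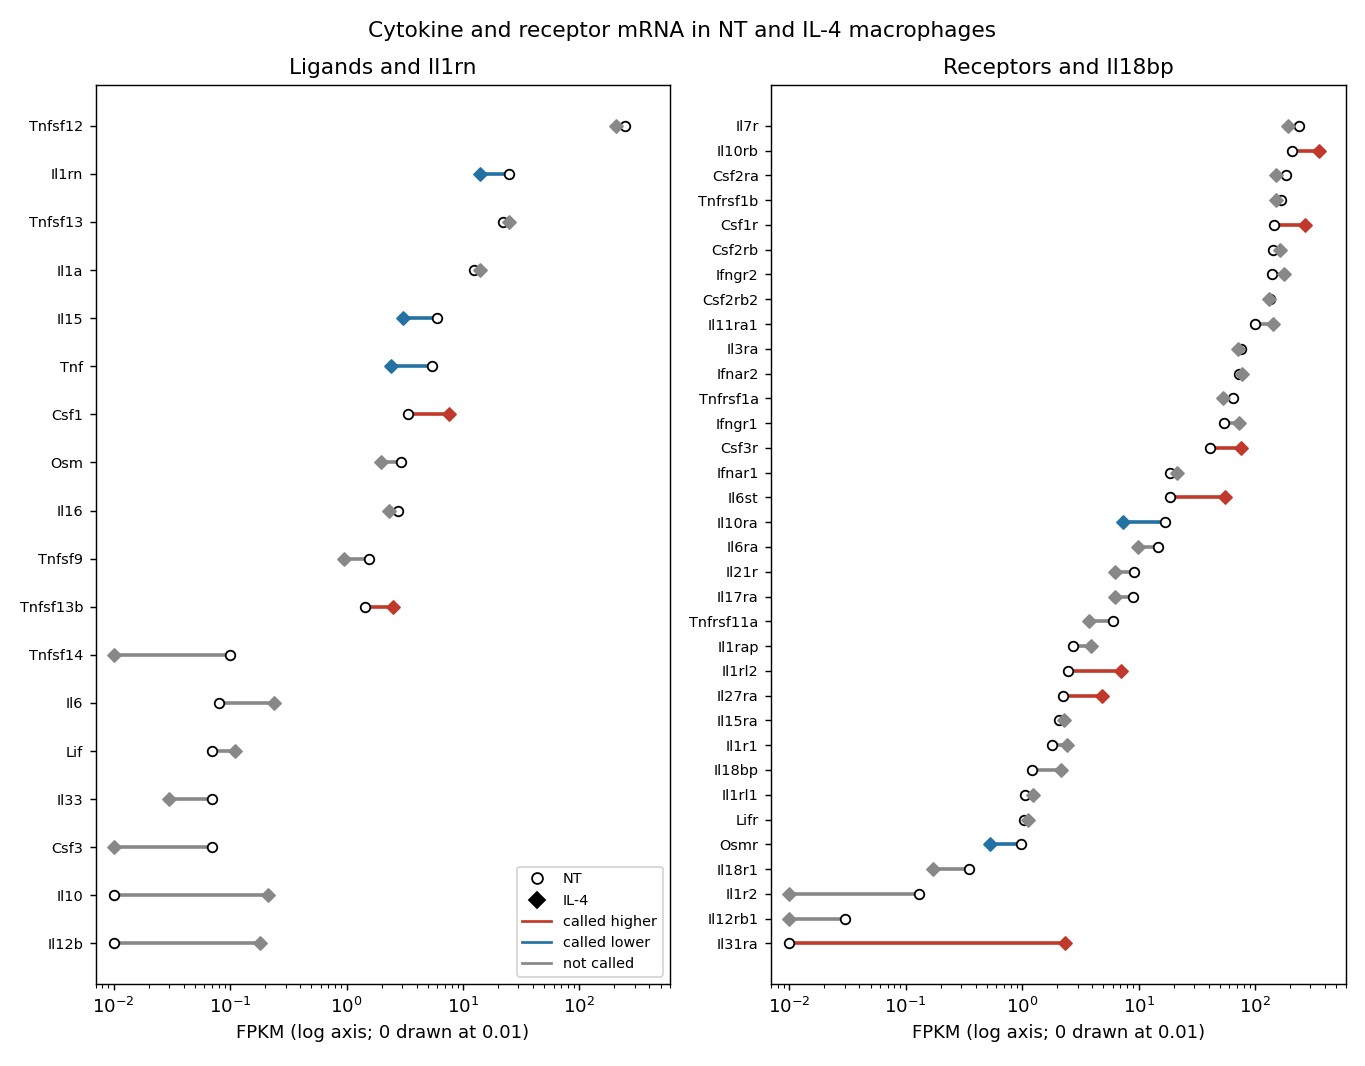
FPKM of each gene of the list in the NT and IL-4 libraries, on a log axis, with 1 point per library. Levels ranged from near 0 to 245.81 FPKM in NT cells (Tnfsf12) and to 355 FPKM in IL-4 cells (Il10rb).

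Transcript length moved with the ratio across the whole data set, so each ratio was also read after subtracting the median over the 200 genes of most similar length. After this subtraction 7 genes of the list were called higher and 4 lower, beside 4.07% higher and 4.84% lower among all genes. The calls of Tnfsf13b, Il10rb and Osmr were lost. The part of length in the ratios cannot be told apart from that of IL-4 with 1 library per group.

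**Figure D2:**
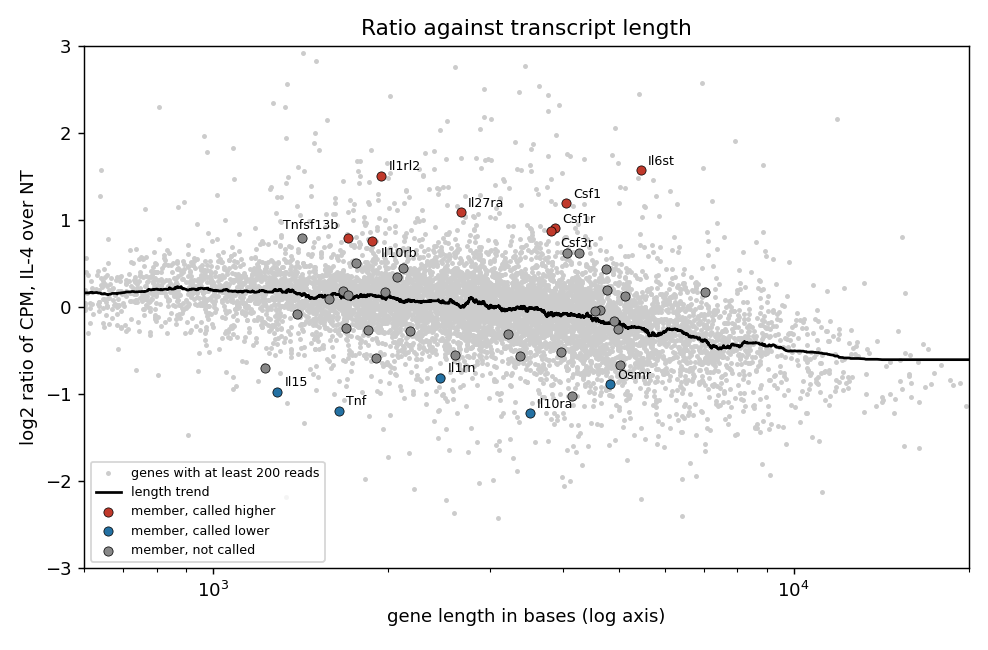
Log2 ratio of CPM (IL-4 over NT) against transcript length in bases on a log axis. Grey points are all genes with at least 200 reads, the line is the median over the 200 genes of most similar length, and larger points are genes of the list. Il6st, Csf1, Csf1r and Csf3r lie above the line at lengths where the line is under 0. Ratios beyond 3 in size and lengths outside the axis are not drawn.

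Among the genes called higher, Il31ra and Il6st of the IL-6 receptor family had the largest ratios. Il6st (chromosome 13, 112464070 to 112506860), the shared gp130 chain, had 1133 counts in NT and 3434 in IL-4 cells, or 18.6 and 55.3 FPKM. Its transcript was thus 2.97 times as abundant in the IL-4 library, with a log2 ratio of 1.57 (95% interval 1.47 to 1.67). The ratio was 1.81 with the length trend subtracted. Il31ra, which encodes the ligand-binding chain of the IL-31 receptor and lies 15.1 kb from Il6st with no coding gene between them, had no reads in NT and 98 counts in IL-4 cells. With the floor of 3 counts in place of 0 in NT, the ratio was 32.0-fold. The 95% interval of its log2 ratio started at 4.68 and had no upper end. Its level in IL-4 cells was 2.35 FPKM. Il27ra, which pairs with gp130 in the IL-27 receptor, rose from 67 to 146 counts, from 2.26 to 4.83 FPKM. This was a log2 ratio of 1.09 (interval 0.67 to 1.54).

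None of the other chains that pair with gp130 was called higher. Il6ra, which binds IL-6, had 553 counts in NT and 382 in IL-4 cells, and its log2 ratio of -0.56 (-0.75 to -0.37) was not called. The level of Il6st in FPKM was therefore 1.26 times that of Il6ra in NT and 5.54 times in IL-4 cells. Osmr, the oncostatin M chain and also the partner of Il31ra, fell from 53 to 29 counts. Its level was 0.98 FPKM in NT and 0.53 FPKM in IL-4 cells, a log2 ratio of -0.89 (-1.60 to -0.22) that was -0.70 after subtraction of the length trend and no longer called. In IL-4 cells the level of Il31ra was 4.43 times that of Osmr. Il11ra1, the IL-11 receptor, was abundant at 100.53 and 142.7 FPKM, with a log2 ratio of 0.51 (0.42 to 0.59). It shares 19.3% of its 31-base words with Il11ra2, but the summed counts of both copies gave 0.50. Lifr, the LIF receptor, had 55.7 and 55.0 counts, and the ligand Osm had 62 and 42 counts, neither called.

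**Figure D3:**
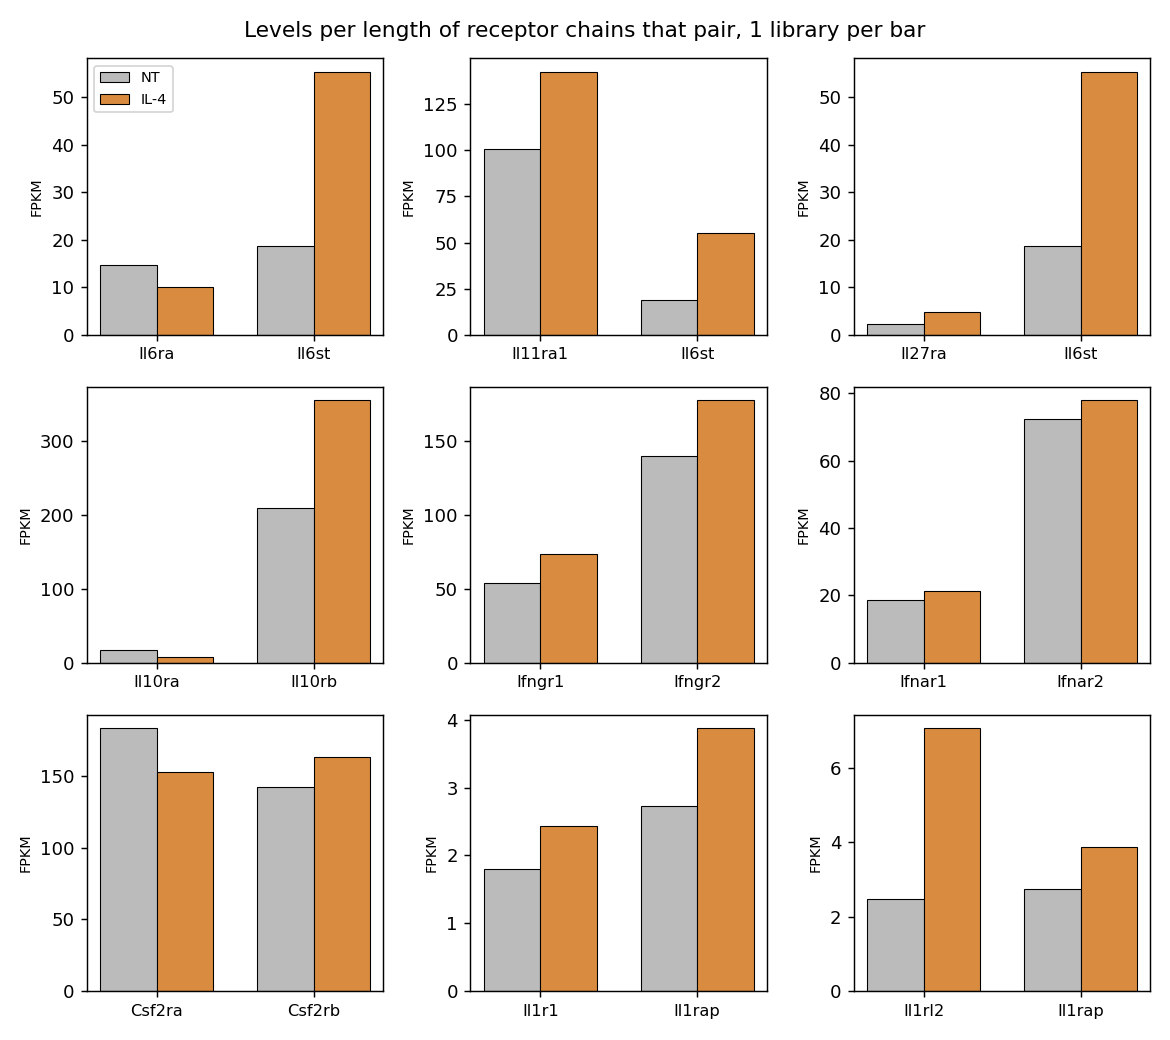
FPKM in the NT and IL-4 libraries of receptor chains that act together, as bars on a linear axis. Each panel holds a pair of chains, with a separate bar for each library. Il6st and Il6ra move apart, as do Il10rb and Il10ra, whereas the interferon receptor chains keep their order.

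The colony-stimulating factor axis rose at the ligand and at its receptor. Csf1, encoding M-CSF, had 151 counts in NT and 353 in IL-4 cells, or 3.35 and 7.63 FPKM. Its log2 ratio was 1.19 (0.92 to 1.48). Csf1r, the M-CSF receptor, had 6236 and 11896 counts, or 144.57 and 270.38 FPKM, a log2 ratio of 0.90 (0.86 to 0.95). By FPKM it moved from rank 5 to rank 2 among the receptors. The receptor was 43.2 times as abundant as the ligand in NT and 35.4 times in IL-4 cells. Csf3r, the G-CSF receptor best known from neutrophils, rose from 1758 to 3291 counts, from 41.2 to 76.0 FPKM (log2 ratio 0.88, 0.79 to 0.96). Beside this, S100a8 was the 1 of 5 neutrophil markers listed, with 35 counts in NT and 21 in IL-4 cells, and the others were not listed in either library.

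The receptor chains for GM-CSF and IL-3 were abundant and none was called. Csf2ra, the GM-CSF binding chain, had 183.57 FPKM in NT and 152.93 in IL-4 cells (log2 ratio -0.26). Il3ra, which binds IL-3, had 75.8 and 71.5 FPKM (-0.08). Csf2rb had 142.08 and 162.99 FPKM (0.20), and Csf2rb2, a mouse copy that serves IL-3 alone, had 135.16 and 132.25 FPKM (-0.04). The copies share reads, with 18.8% of the 31-base words of Csf2rb found in Csf2rb2, so their separate values are uncertain, and their summed log2 ratio was 0.09 (0.06 to 0.12).

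The IL-10 receptor chains moved in opposite directions. Il10ra, the chain that binds IL-10, had 664 counts in NT and 291 in IL-4 cells, or 17.02 and 7.31 FPKM. It fell by 1.22 on the log2 scale (interval -1.42 to -1.02). Il10rb, the partner chain that also serves the IL-22 and type III interferon receptors, rose from 4337 to 7498 counts and from 209.58 to 355.23 FPKM. Its log2 ratio of 0.76 (0.71 to 0.82) lay at the threshold and was 0.62 with the length trend subtracted and 0.74 with a total that leaves out the 100 most abundant genes, neither of them called. Il10rb had the highest FPKM of all receptors of the list in IL-4 cells, and its level was 12.3 times that of Il10ra in NT and 48.6 times in IL-4 cells. Il10 itself had 0 and 3 counts.

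Il10rb lies in a cluster on chromosome 16 with the interferon receptor genes Ifnar2, Ifnar1 and Ifngr2, 0.6 kb from Ifnar2. All 4 had ratios above 0, but Il10rb was the one called. With the length trend subtracted, the ratios were 0.62 for Il10rb, 0.55 for Ifnar1, 0.26 for Ifngr2 and -0.03 for Ifnar2, and none of the 4 was called. The type I interferon receptor chains Ifnar1 and Ifnar2 had log2 ratios of 0.18 (0.07 to 0.28) and 0.10 (-0.01 to 0.21). The interferon-gamma receptor chains Ifngr1, on another chromosome, and Ifngr2 had 0.45 (0.35 to 0.56) and 0.35 (0.28 to 0.41). In FPKM, Ifngr2 was 2.602 times Ifngr1 in NT and 2.41 times in IL-4 cells.

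In the IL-1 family, one receptor rose and the receptor antagonist fell. Il1rl2, the receptor for the IL-36 cytokines, had 53 counts in NT and 155 in IL-4 cells, or 2.46 and 7.07 FPKM (log2 ratio 1.51, 1.06 to 1.999). It lies on chromosome 1 (40324589 to 40367555) among Il1r2, Il1r1, Il1rl1 and Il18r1, none of which was called. Il1rap, the accessory chain shared by the IL-1, IL-33 and IL-36 receptors, had 125 and 196 counts. Its log2 ratio of 0.62 (0.29 to 0.96) was not called here. It passed at a fold over 1.5 with a Benjamini-Hochberg (BH) limit of 0.05, the general criteria in the methods of the study. Under these, 4.96% of all genes were higher and 8.07% lower. For the IL-4 comparison, however, the study states a log2 cut-off of 0.75 in its results. That is the threshold used here, and Il1rap did not reach it. Il1rn, the secreted IL-1 receptor antagonist, fell from 674.77 to 391.62 counts and from 24.8 to 14.1 FPKM (log2 ratio -0.81, -0.995 to -0.63). Il1a, the agonist, had 269 and 309 counts (0.17, -0.07 to 0.41), so its level was 0.499 times that of Il1rn in NT and 0.988 times in IL-4 cells. Il1r1, the signalling IL-1 receptor, had 95 and 131 counts (0.43), and Il18bp, a secreted inhibitor of IL-18, had 19 and 34 counts (0.80, -0.04 to 1.70). Neither was called.

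TNF family transcripts ranged from the most abundant ligand of the list to several near the floor. Tnfsf12, encoding TWEAK, stood at 245.81 FPKM in NT and 207.69 FPKM in IL-4 cells, with a log2 ratio of -0.24 (-0.30 to -0.18). Its neighbour Tnfsf13, encoding APRIL, had 21.9 and 24.8 FPKM (0.18). Both share sequence with the read-through gene Tnfsfm13, at 47.4% and 58.4% of their 31-base words, so their separate values are uncertain. The 3 summed gave -0.24, but Tnfsf12 made up 4578 of the 5609 summed counts in NT. The sum therefore says little about Tnfsf13. Tnfsf13b, encoding the B cell survival factor BAFF, rose from 27 to 48 counts and from 1.44 to 2.50 FPKM. Its log2 ratio of 0.79 (0.09 to 1.54) fell to 0.65 with the length trend subtracted, to 0.74 with 3 counts added and to 0.52 with 1 FPKM added, and the call was lost in each. Tnf, the founding inflammatory cytokine of the family, fell from 5.45 to 2.39 FPKM, and its log2 ratio of -1.19 was -1.33 after subtraction of the length trend. Tnfsf9, the ligand of 4-1BB, had 21 and 13 counts and was not called.

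None of the TNF receptors of the list was called. Tnfrsf1b, the inducible TNF receptor of leukocytes, had 168.84 FPKM in NT and 150.47 in IL-4 cells (log2 ratio -0.17). Tnfrsf1a, the more widely expressed receptor, had 64.3 and 53.0 FPKM (-0.28). Tnfrsf11a, which encodes RANK, the receptor that directs osteoclast formation, had 335.98 and 216.36 counts. Its log2 ratio of -0.66 (-0.92 to -0.41) was not called here, but it passed at a fold over 1.5 with the BH limit, which covers counting error only. Like that of Il1rap, this ratio was smaller in size than the cut-off of 0.75 that the study states for IL-4.

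Among cytokines that use the common gamma chain, Il15 fell and its receptor chain had a ratio near 0. Il15 had 85 counts in NT and 44 in IL-4 cells, or 6.03 and 3.07 FPKM (log2 ratio -0.97, -1.54 to -0.44). Il15ra, which presents IL-15 to neighbouring cells, had 39 and 44 counts (0.14, -0.51 to 0.81). Il7r, the IL-7 receptor, was the most abundant receptor of the list in NT cells at 239.93 FPKM, against 193.13 FPKM in IL-4 cells (-0.31, -0.36 to -0.27). Il21r had 263.98 and 183.99 counts (-0.55, -0.83 to -0.27). Il17ra, the receptor for IL-17 cytokines, had 399.68 and 283.88 counts (-0.52), and Il16 had 154 and 132 counts. These were not called.

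**Figure D4:**
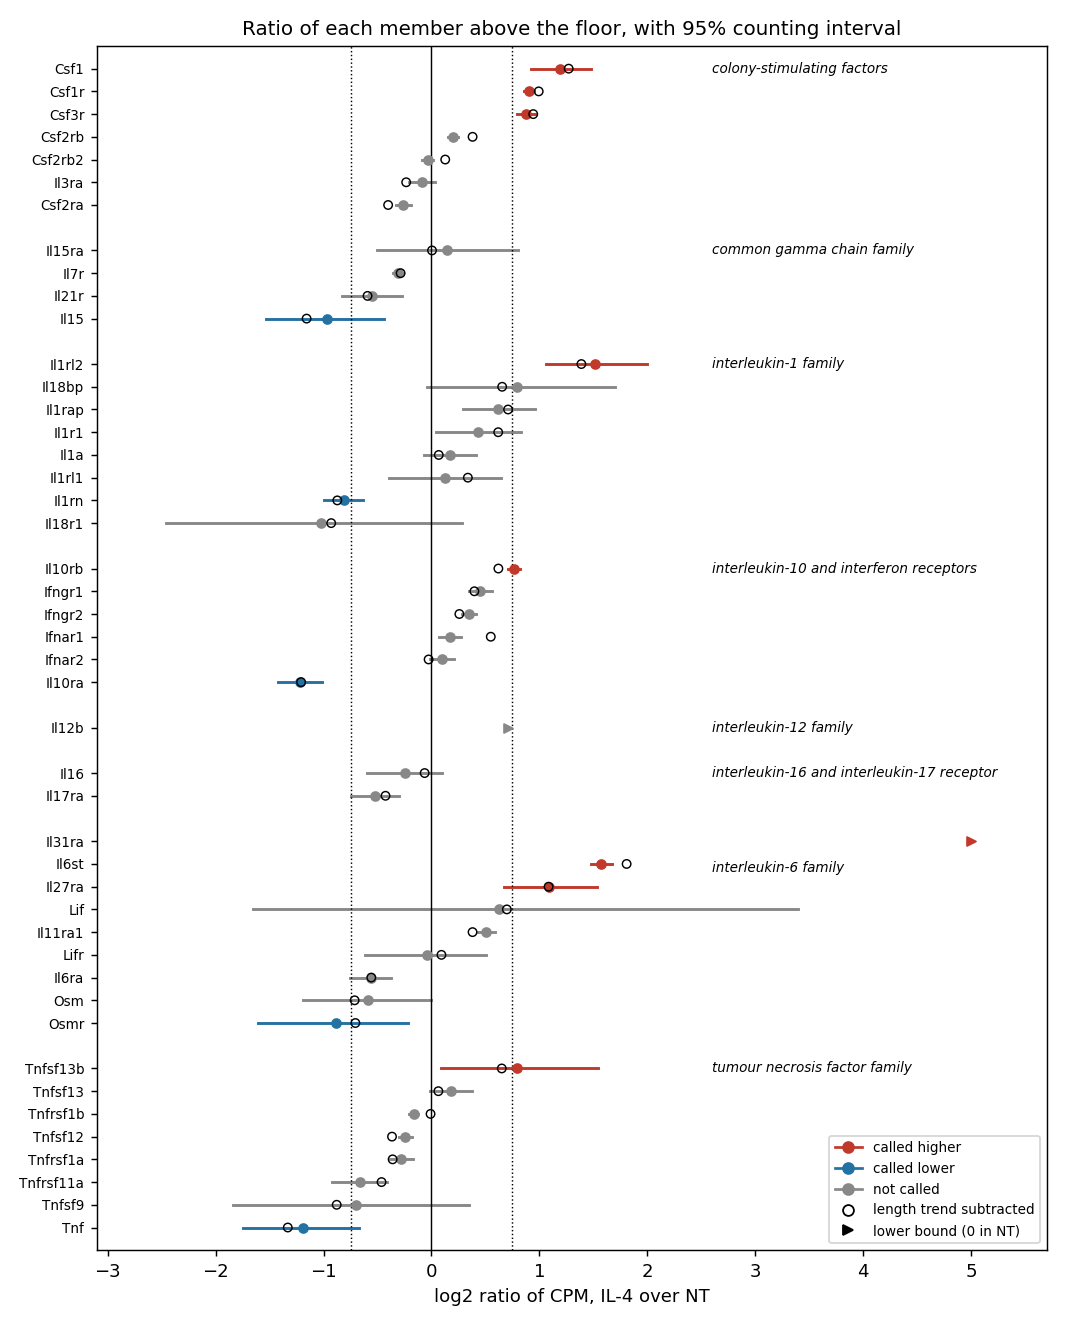
Log2 ratio of CPM (IL-4 over NT) of the 45 genes of the list above the floor, by family, with exact 95% counting intervals as lines and dotted lines at the call threshold of 0.75. Open circles give the ratio with the length trend subtracted. Triangles mark Il31ra and Il12b, which had no reads in NT cells, and are drawn without an interval. They give the ratio with the floor of 3 counts in place of 0 in NT, which is not the lower end of the interval. That end was at 4.68 for Il31ra and at -0.15 for Il12b, which was not called. Calls in both directions occur in the IL-1, IL-6, TNF and IL-10 families, whereas the colony-stimulating factor family holds 3 higher and no lower.

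The rest of the cytokine families held further receptors that rose. Of 57 other cytokine receptors, 47 had reads, 5 were called higher (10.6%, against 4.07% of all genes) and 2 lower (4.26%, against 6.28%). Tnfrsf12a, the TWEAK receptor Fn14, rose from 121 to 426 counts, from 11.5 to 39.4 FPKM (log2 ratio 1.78, 1.49 to 2.09). Its ligand Tnfsf12 was the abundant one described above. Il20rb, a chain of the receptors for IL-19, IL-20 and IL-24, rose from 18 to 111 counts (2.56, 1.87 to 3.40), and Cd40, a costimulatory receptor, from 14 to 82 counts (2.48, 1.69 to 3.46). The TNF receptor family members Relt and Tnfrsf26 rose, Relt from 75 to 143 counts (0.90) and Tnfrsf26 from 407 to 707.85 counts (0.77). Tnfrsf14, the receptor HVEM, fell from 56 to 33 counts (-0.78, -1.46 to -0.14), and Il17rd, at 12.5 and 4.33 counts, was the other one called lower, but its call was lost with the length trend subtracted (-1.06, -3.41 to 0.36).

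The receptor of IL-4 itself was not called. Il4ra, its binding chain, had 558 and 720 counts (log2 ratio 0.34, 0.18 to 0.50). Il13ra1, the partner chain of the type II receptor, had 327 and 203 counts (-0.71, -0.98 to -0.46), and Il2rg, the partner chain of the type I receptor, 2270 and 2261 counts (-0.03).

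Of 51 other cytokine ligands, 24 had reads. Among these Il19, with 0 and 7 counts, was called higher (4.17%, near the 4.07% of all genes) and none was called lower. Of 17 genes that act in shedding of cytokines or turnover of their mRNA, 2 were called higher (11.8%) and 1 lower (5.88%, near the 6.28% of all genes). Rhbdf2, which directs the TNF-cleaving protease ADAM17 to the cell surface, rose from 571 to 1073 counts (log2 ratio 0.88, 0.73 to 1.03). Zfp36, encoding the mRNA-destabilizing protein tristetraprolin, rose from 580 to 1033 counts (0.80, 0.66 to 0.95), a call lost with the length trend subtracted (0.68), and its relative Zfp36l2 fell from 3663 to 1743 counts (-1.10, -1.18 to -1.02).

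The calls rest on counting error within 1 library per group. Assuming a coefficient of variation of 0.4 between animals, Il31ra was the one gene of the list called higher and none was called lower, beside 1.31% higher and 0.564% lower among all genes. With 0.2, 7 were called higher and 2 lower, the latter being Il10ra and Tnf, beside 3.07% and 4.00% among all genes.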

How the data were processed

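Total RNA from 1 NT and 1 IL-4 sample had been sequenced, and the samples were grouped by their titles. Per the labels and the published methods, the authors used Bowtie against GRCm38/mm10 and then RSEM, with versions not given in the sources used here. The deposited expected counts are RSEM estimates of the reads of each gene, which can be fractional where reads are shared out among transcripts. The authors also deposited FPKM values, scaled for transcript length and depth, which were used for levels, and a transcript length, which was used for the length trend. A gene missing from a table was set to 0. Gene numbers were matched to symbols through RefSeq for 15587 of 15623 genes.

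Log2 ratios used counts scaled to the library totals of 11035641 and 11250099 with 0.5 count added. For each gene, the share of its rounded counts that came from IL-4 cells was given an exact 95% interval (Clopper-Pearson). The members and the other gene lists were chosen with earlier results of these data known. Members that were called or had at least 200 counts in either library were named with values, as were called genes of the other lists with at least 50 counts. Il19, Il17rd, the IL-4 receptor chains and members with fewer reads were named after their values were seen. Alternatives were median-of-ratios scaling (DESeq2 1.42.0), TMM scaling (edgeR 4.0.16), other totals, constants, thresholds and filters, subtraction of the length trend, and an exact test in edgeR that assumes a coefficient of variation. A further alternative set the BH limit on exact binomial tests of the counts of each gene, which cover counting error only. The procedure was tested on simulated data. Scripts ran in R 4.3.3 and in Python 3.11.15 with pandas 2.3.3, scipy 1.17.1, numpy 2.4.6 and matplotlib 3.10.9.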

Additional observations from a re-analysis of the deposited data

How the results depend on the processing

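No paired analysis was possible because NT and IL-4 had 1 library each. A log2 ratio of at least 1 left 5 members higher and 2 lower, and 474 and 580 of all 15593 genes, by construction of the stricter threshold. An assumed coefficient of variation of 0.2 left 2 lower, and 0.4 left 1 higher and 0 lower, by construction of the wider spread. Under the other alternatives 7 to 9 members were higher and 4 to 6 lower. Among all genes, these alternatives gave 391 to 774 higher and 399 to 1259 lower, so the background moved as well. The ligand median ran from -0.27 to -0.08 and the receptor median from 0.09 to 0.15. Over 33 named members and all alternatives, 362 of 396 comparisons kept their side of the threshold, 33 lost the call, 1 gained it and 0 reversed. Only the 9 members called higher and the 5 called lower could lose a call, and all 33 losses fell among them. The 362 also include members that were not called in either setting. Scaling alternatives shift every ratio by the same amount. Depth limits the members under 20 counts and Tnfsf13b and Osmr, whose intervals are wide.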

Other observations

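The neighbourhood of Il6st was examined after its value and that of Il31ra had been seen. On chromosome 13, 4 genes in a row among those listed were called higher. Ankrd55 (112288451 to 112384005) had 123 counts in NT and 409 in IL-4 cells, a log2 ratio of 1.70 (1.41 to 2.01). Il6st and Il31ra followed, and then Ddx4, a germ cell RNA helicase, with 2 and 20 counts (3.01, 1.25 to 6.44). The next genes were not called, with Slc38a9 at 284 and 453 counts (0.64), Plpp1 at 37 and 51 counts (0.43) and Mtrex at 696 and 846 counts (0.25). Across 15557 genes in genome order, there were 4 runs of at least 4 neighbouring genes called higher and 14 runs of at least 3. The counting is not stated to use strand, so reads from overlapping or antisense transcripts cannot be told apart.

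The transcript length that the authors list for a gene is weighted over its transcripts, and it moved between libraries for 3 receptors of the list above the floor by more than 5%. It was 4107 bases in NT and 4443 in IL-4 cells for Il1rap, which has membrane and soluble forms. For Il1rl1, which also has both forms, it was 5308 and 4947 bases, and for Lifr 4806 and 4297 bases. The split between transcripts could not be read from gene-level values.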
